A study of Gallus gallus with 8 samples.

Results

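LMO2, HOPX and 5 further regulators known from blood cell formation or from work on these proteins (LMO4, LDB1, TAL1, GATA2 and GATA3) were followed across the differentiating chicken lens. LMO2 and HOPX were selected on their large difference between the equatorial epithelium and the cortical fibers, so that difference is given as a description, and the other genes were chosen as their relatives and partners. Of 8 gene names searched for among the 16906 loci of the deposited expression table, 6 were matched by symbol, TAL1 was matched through its RefSeq synonym SCL, and 1 (LYL1) had no match and was not analysed here. All lenses were from chicken embryos at embryonic day 13 and the labels name no treatment or genetic change. They were microdissected into central epithelium (EC), which is not differentiating, equatorial epithelium (EQ), where differentiation begins, cortical fibers (FP) and central fibers (FC). Each of the 4 regions had 2 mRNA libraries from separate pools of 100 lenses, 8 libraries in all, and libraries of different regions may come from the same lenses. Levels are given as FPKM, fragments per kilobase of transcript scaled to the number of mapped fragments, which is a measure per length, with 1 pooled value per region and the 95% interval that the authors' software derived for it in parentheses.

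LMO2 is a LIM-only protein, which binds no DNA itself. In mouse and human blood progenitors it bridges the bHLH factor TAL1 and its E-protein partners to GATA factors through the self-associating cofactor LDB1, and in mouse it is required for blood formation. HOPX is an atypical homeodomain protein that also lacks DNA binding. In the mouse heart it restrains transcription by serum response factor (SRF) and recruits the histone deacetylase HDAC2. GATA3, besides its role in T cells, is required in mouse lens for fiber cells to leave the cell cycle.

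Marker genes of lens fibers and lens epithelium were set beside the region labels. Of 14 fiber marker loci compared between EC and FC, 13 were at least 2-fold higher in FC and 0 lower, against 21.9% and 22.8% of all loci, and of 15 compared between EQ and FP, 9 were higher in FP and 3 lower, against 15.5% and 25.7%. In EQ, 11 of 14 were already at least 2-fold higher than in EC, against 8.89% of all loci. Of 5 epithelial marker loci, 3 were at least 2-fold lower in FC than in EC, 4 were lower in FP than in EQ, and 0 were higher in either. As values per library were not analysed here, no comparison below carries a test, and the deposited values do not give the read depth behind them. A difference between regions can come from fewer cells of a type or from less RNA per cell, which cannot be told apart in pooled tissue.

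LMO2, listed on chromosome 5 from 17708713 to 17717820 of Galgal4, was scarce in both epithelial regions and abundant in both fiber regions. Its FPKM was 2.82 (0.730 to 4.94) in EC and 2.08 (0.515 to 3.65) in EQ, against 321 (3.44 to 751) in FP and 194 (0.558 to 1076) in FC. Ranked by level among all loci, LMO2 was at place 8877 in EC and 9479 in EQ, against 249 in FP and 432 in FC. From highest to lowest the order was FP, FC, EC and EQ. The FP value was 154 times the EQ value, a log2 ratio of 7.27, which was the fifth highest (place 5 of 9520 loci at 1 FPKM or more in both regions). Between the ends of the differentiation path FC was 68.7 times EC (log2 ratio 6.10, place 27 of 9542). As EC was near EQ and FC near FP, this largely repeats the contrast that chose the gene. FC was 1.65-fold lower than FP, well within the width of both intervals.

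HOPX, listed on chromosome 4 from 48685183 to 48688651, had a similar two-level course at a higher level. Its FPKM was 8.04 (0.343 to 16.0) in EC and 8.47 (1.95 to 14.8) in EQ, against 1458 (1.68 to 3680) in FP and 1465 (4.39 to 4202) in FC. It stood at place 5467 in EC and 5633 in EQ, against 71 in FP and 83 in FC, so HOPX was among the 100 most abundant loci of both fiber regions. The FP value was 172 times the EQ value (log2 ratio 7.43, place 3 of 9520), and FC was 182 times EC (log2 ratio 7.51, place 7 of 9542). As FC was near FP and EC near EQ, the second ratio largely repeats the first, which chose the gene. EC and EQ were at nearly the same level (log2 ratio 0.08), as were FP and FC (0.01), and the sign of both small differences flipped under other scalings of the regions.

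The intervals of LMO2 and HOPX in the fibers were wide. The lower bound was 1.07% of the FPKM for LMO2 in FP and 0.288% in FC, and 0.115% and 0.300% for HOPX. For the 704 loci at 100 FPKM or more in FP the median lower bound was 10.3% of the FPKM, and for the 760 such loci in FC it was 10.4%. Of these loci in FP, 25% had a lower bound, as a percentage, at or below that of LMO2 and 18.2% at or below that of HOPX. In FC these shares were 15.5% and 15.8%. Wide intervals were also seen at loci with a similar course. Among 49 loci that were at 100 FPKM or more and at least 20-fold higher in FP than in EQ, the median lower bound was 1.86% in FP. Among 49 chosen by their level in FC it was 1.67% in FC. For LMO2 the interval of FP began just below the end of that of EQ (3.44 against 3.65), whereas for HOPX the overlap was broad. In all 7 genes the intervals of regions next to each other in the order of levels overlapped.

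**Figure D1:**
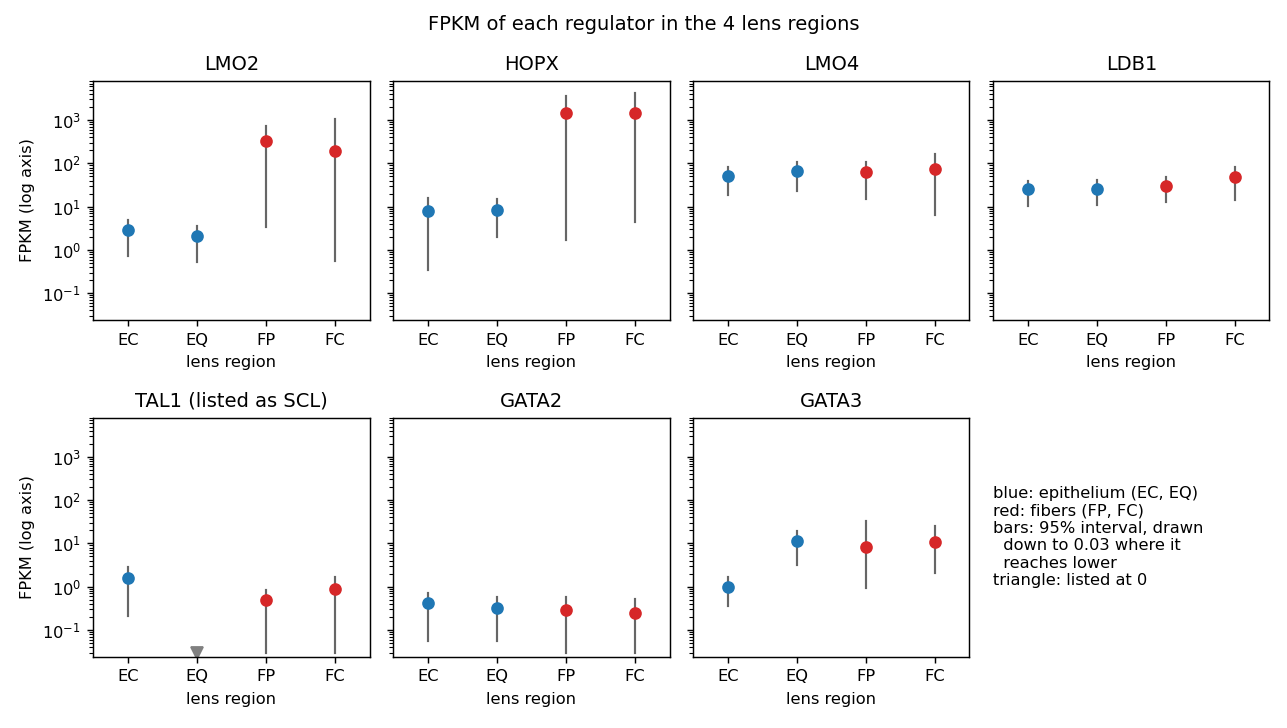
FPKM of the 7 regulators in EC, EQ, FP and FC on a log axis, where points are the pooled value of 2 libraries and bars the 95% interval. LMO2 and HOPX lie between 2.08 and 8.47 FPKM in the epithelium and between 194 and 1465 in the fibers, LMO4 and LDB1 stay between 25.0 and 74.1, TAL1 and GATA2 stay at 1.57 or below, and GATA3 is low in EC only.

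LMO4 and LDB1 were expressed in every region at comparable levels. LMO4, a widely expressed relative of LMO2 that also binds LDB1, is listed on chromosome 8 from 14657095 to 14677322, at an FPKM of 51.1 (18.5 to 83.7) in EC and 65.2 (23.2 to 107) in EQ, against 62.3 (15.2 to 110) in FP and 74.1 (6.29 to 169) in FC. As deposited, LMO4 varied by no more than 1.45-fold between regions (log2 ratio 0.54 of FC over EC), but with each region rescaled to the same total this log2 ratio was 1.725. LDB1, on chromosome 6 from 22064186 to 22073182, was measured at 25.0 (10.5 to 39.3), 25.9 (11.0 to 40.8), 30.6 (13.0 to 48.2) and 49.0 (14.3 to 83.8) FPKM along the path from EC to FC. LDB1 was thus highest in FC, 1.60 times FP and 1.96 times EC, just under the 2-fold threshold of the study, and all 4 intervals overlapped. With rescaled totals its log2 ratio of FC over EC was 2.16 instead of 0.97.

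The makeup of the LMO family, whose members compete for LDB1 in other systems, differed between epithelium and fibers. The summed FPKM of LMO1, LMO2, LMO3 and LMO4 was 55.7 in EC and 71.2 in EQ, against 386 in FP and 271 in FC. LMO4 made up 91.7% of this sum in EC and 91.5% in EQ, and LMO2 made up 83.2% in FP and 71.7% in FC. LMO4 was 18.1 times LMO2 in EC and 31.3 times in EQ, whereas LMO2 was 5.16 times LMO4 in FP and 2.62 times in FC. LMO1 stayed at or below 0.785 FPKM and LMO3 at or below 3.33 FPKM. Against LDB1, LMO2 went from a ratio of 0.113 in EC and 0.0803 in EQ to 10.5 in FP and 3.96 in FC, while the ratio of LMO4 to LDB1 stayed between 1.51 and 2.52. As ratios within a region, these values do not depend on the scaling between regions. As LMO4 and LDB1 changed far less than LMO2, these shares and ratios largely repeat the contrast that chose LMO2. The intervals of LMO2 in FP (3.44 to 751) and FC (0.558 to 1076) reach below the FPKM of LMO4 and LDB1 there. The order of these genes in the fibers is therefore uncertain. LDB2, the second member of the cofactor family, was at 1.52 FPKM in EC and 0.425 in FC.

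**Figure D2:**
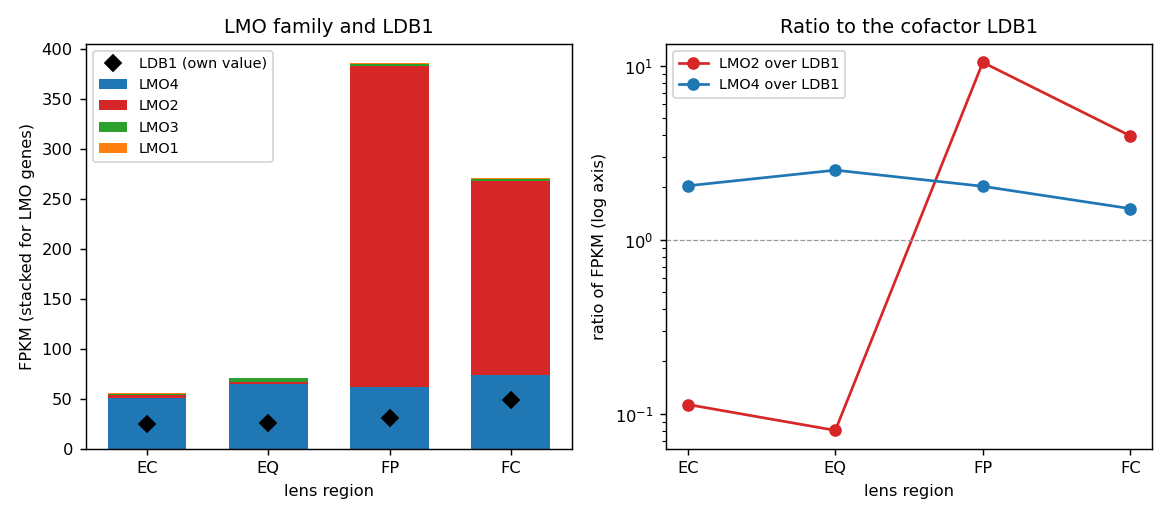
Left, FPKM of the 4 LMO genes stacked by region, with the level of LDB1 as a diamond, and right, the ratio of LMO2 and of LMO4 to LDB1 on a log axis. The stack is mostly LMO4 in EC and EQ (91.7% and 91.5%) and mostly LMO2 in FP and FC (83.2% and 71.7%), and only LMO2 of the pair crosses a ratio of 1. As LMO2 was chosen for its rise from EQ to FP, this change largely repeats that contrast.

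TAL1 and GATA2, DNA-binding partners of LMO2 in blood cells, were low. TAL1, listed as SCL on chromosome 8 from 20810414 to 20813774, reached 1.57 FPKM (0.206 to 2.89) in EC, was listed at 0 in EQ, and stood at 0.485 (0 to 0.825) in FP and at 0.874 (0 to 1.65) in FC. GATA2, a regulator of blood stem cells, on chromosome 12 from 9185918 to 9200490, was measured at 0.415 (0.0563 to 0.732) in EC and 0.316 (0.0563 to 0.563) in EQ, against 0.283 (0 to 0.563) in FP and 0.243 (0 to 0.507) in FC. Neither gene was higher in the fibers than in EC as deposited, although from EC to FC this direction turned for both when each region was rescaled to the same total. As TAL1 did not exceed 1.57 FPKM and GATA2 did not exceed 0.415, the genes are described one by one and are not called a blood program.

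GATA3 followed another course, with its step between the epithelial regions. It is listed on chromosome 1 from 4288841 to 4318191 and had an FPKM of 1.01 (0.357 to 1.66) in EC and 11.3 (3.11 to 19.7) in EQ, against 8.38 (0.927 to 33.2) in FP and 10.6 (2.10 to 25.7) in FC. EQ was 11.3 times EC (log2 ratio 3.49, place 12 of 10164), FC was 10.5 times EC (3.40), and in both pairs the intervals did not overlap. With 1 added to the FPKM the log2 ratio of EQ over EC was 2.62, and over the alternatives that of FC over EC ran from 2.53 to 4.585. FP and EQ differed by a log2 ratio of -0.44, whose sign changed when each region was rescaled to the same total. GATA3 was thus near its fiber level in EQ, where LMO2 and HOPX were still at their EC level.

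Counts were read against all loci, with a ratio of at least 2 and 1 FPKM or more in at least 1 of the regions compared. A locus far below this floor in one region passes it only by being high in the other. Its call is then fixed in advance, and nothing is read from such calls here or below. Of the 6 genes matched by symbol 5 could be compared, since GATA2 was below 1 FPKM everywhere. From EC to EQ, 1 of the 5 (GATA3) was higher, against 8.89% of all loci, and 0 were lower, against 9.36%. From EQ to FP, 2 (LMO2 and HOPX) were higher, against 15.5%, and 0 lower, against 25.7%, and since this contrast chose the 2 genes nothing is read from it. From FP to FC, 0 were higher, against 3.04%, and 0 lower, against 2.83%. Over the ends of the path, 3 (LMO2, HOPX and GATA3) were higher in FC than in EC, against 21.9%, and 0 were lower, against 22.8%. For LMO2 and HOPX this largely repeats the contrast that chose them, so nothing is read from it for these 2 genes. By the ratio of both fiber regions, summed, to both epithelial regions, 2 (LMO2, at a ratio of 105, and HOPX, at 177) were fiber preferred, against 16.6%, and 0 were epithelium preferred, against 24.2%, and as this ratio contains the FP and EQ values that chose LMO2 and HOPX, nothing is read from it either. Intervals that did not overlap were found for 1 gene (GATA3) from EC to EQ, where 0.761% of loci had EQ above EC, for 0 genes from EQ to FP, where 2.39% had FP above EQ, and for 1 gene (GATA3) from EC to FC, where 2.76% had FC above EC. The median log2 ratio over all loci was 0.23 from EC to EQ, -0.30 from EQ to FP, 0.10 from FP to FC and -0.02 from EC to FC.

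**Figure D3:**
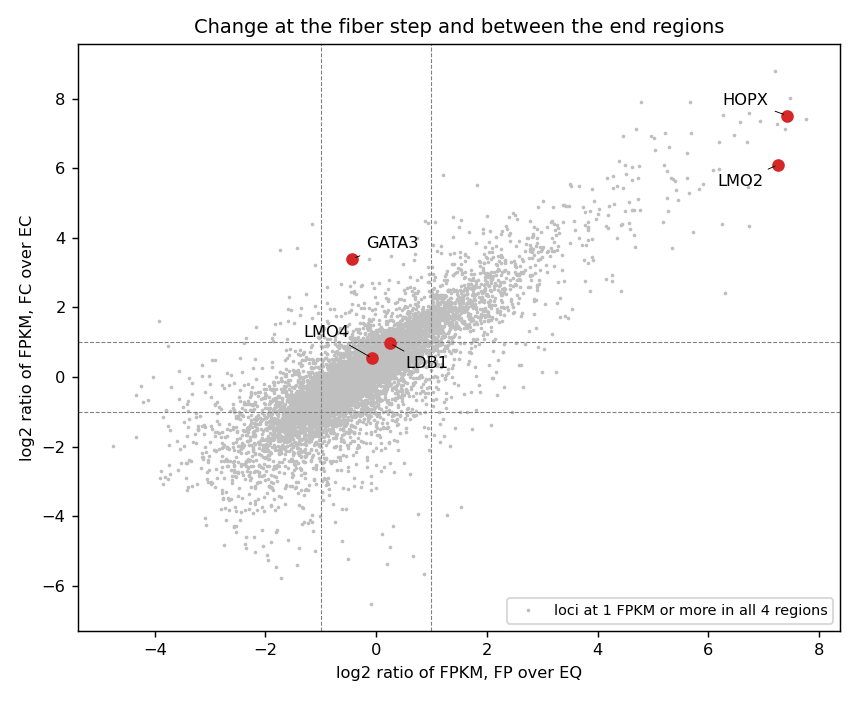
Log2 ratio of FP over EQ (horizontal) against FC over EC (vertical) for the 9068 loci at 1 FPKM or more in all 4 regions (grey), with the members among them in red and dashed lines at 2-fold. HOPX (7.43, 7.51) and LMO2 (7.27, 6.10) sit at the upper right edge, GATA3 (-0.44, 3.40) is high on the vertical axis only, and LMO4 and LDB1 lie within the cloud, inside the lines.

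The loci with courses most like LMO2 and HOPX were found by the root mean square (RMS) difference of log2(FPKM + 1) over the 4 regions, with each locus centred on its own mean, among 10252 loci. Nearest to LMO2 was CLIC5, an intracellular chloride channel family protein linked to the actin cortex (1.07 FPKM in EC and 1.14 in EQ, against 192 in FP and 149 in FC, RMS 0.194). Next came IRAK4, a kinase of Toll-like receptor signaling (3.86, 3.16, 334 and 171), the tyrosine phosphatase PTPN5 (1.10, 0.846, 186 and 168), the fatty acid binding protein FABP5 (9.31, 10.9, 1132 and 1012) and the paralemmin family member PALM2 (2.61, 3.54, 260.2 and 164). As deposited, all 5 were higher in FP than in FC, as LMO2 was, which their choice by these same values favors. The FP and FC intervals of LMO2 overlapped, and the order turns for CLIC5, PTPN5 and FABP5 when each region is rescaled to the same total.

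Nearest to HOPX was PNP, purine nucleoside phosphorylase (3.39 FPKM in EC and 2.87 in EQ, against 625 in FP and 580.3 in FC, RMS 0.112). It was followed by BASP1, a membrane-bound protein of growing neurites (38.8, 39.1, 4778 and 6331), by GLULD1, which encodes lengsin of the lens fiber (11.3, 14.7, 2627 and 2939), by FABP5 and by CHAC2, an enzyme of glutathione breakdown (3.28, 4.39, 420.1 and 527). FABP5 stood in both sets of 5, and HOPX itself was the locus at place 23 for LMO2 (RMS 0.628). For GATA3, added after its values were seen, the nearest were DNER, a transmembrane protein that binds Notch (30.3, 179, 131 and 164), the Wnt enhancer RSPO3 (3.65, 27.0, 22.3 and 22.3) and the engulfment receptor MEGF10 (1.67, 13.1, 9.46 and 10.3).

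None of the other LIM domain genes and LDB1 partners compared was past 2-fold from EQ to FP. As deposited, 2 of 6 were at least 2-fold lower in FC than in EC, against 22.8% of all loci. Of 16 loci for LIM domain genes and LDB1 partners, 10 stayed below 1 FPKM everywhere, among them LHX1, ISL1 and LMX1B. Of the 6 compared from EQ to FP, 0 were past 2-fold in either direction, against 15.5% of all loci higher and 25.7% lower. The median log2 ratio was -0.44 as deposited. With each region rescaled to the same total it was 0.45, where the median of all loci was 0.61, but over fewer loci, as more of them then fell below the floor of 1. SSBP3, which stabilizes LDB1, had an FPKM of 32.8 in EC and 32.7 in EQ, against 23.4 in FP and 19.5 in FC, and SSBP2 one of 5.46, 5.16, 4.37 and 3.23. RLIM, listed as RNF12, a ubiquitin ligase of LDB1, was at 12.9, 16.6, 13.2 and 16.7. The 2 loci lower in FC than in EC were LDB2, 3.58-fold lower, and the LIM homeodomain factor LHX2, which was 7.19-fold lower, at 2.25 in EC and 0.313 in FC. Both passed the floor of 1 FPKM only through EC, which fixed these calls.

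The bHLH partners of TAL1 were present while the inhibitory ID genes peaked in EQ. The E-protein genes TCF12 (41.9, 45.3, 27.5 and 25.8 FPKM in EC, EQ, FP and FC) and TCF3, listed as G12 (21.0, 21.9, 14.8 and 17.3), were the most abundant of them. TCF4, a further E-protein gene, was at 1.91 in EQ and 0.424 in FP. The ID proteins bind E-proteins and block their DNA binding. ID2 had an FPKM of 44.3 (9.03 to 80.2) in EC and 253 (77.7 to 429) in EQ, against 28.5 (3.85 to 108) in FP and 45.0 (7.57 to 88.6) in FC. ID1 (10.9, 79.3, 26.2 and 32.9) and ID3 (68.3, 124, 26.7 and 29.3) were also highest in EQ. Of the 6 bHLH and ID loci compared from EQ to FP, 4 (ID1, ID2, ID3 and TCF4) were at least 2-fold lower, against 25.7% of all loci, and 0 were higher, against 15.5%. TCF4 passed the floor of 1 FPKM only through EQ, which fixed its call as lower. The median log2 ratio was -1.89 as deposited. With rescaled totals it was -0.81, where the median of all loci was 0.61, but over fewer loci, as more of them then fell below the floor of 1.

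Among the GATA family and its cofactors, GATA4, GATA5 and GATA6 did not exceed 1.22 FPKM in any region. GATA1 was searched for and had no match, so its level is not known here. The cofactor gene ZFPM1, which encodes the GATA partner FOG1, was at 1.79 in EC and 3.73 in EQ, against 4.22 in FP and 4.38 in FC, and the GATA-type repressor gene TRPS1 at 1.79, 2.92, 3.17 and 3.73. Both were past 2-fold from EC to FC (2 of the 3 loci compared, against 21.9% of all loci), with overlapping intervals, and neither from EQ to FP.

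Most other blood regulators were low, and RUNX2 alone of those compared was at least 2-fold higher in FP than in EQ. Of 19 loci, 10 stayed below 1 FPKM everywhere, including RUNX1, SPI1, which encodes PU.1, FLI1, IKZF1, GFI1B and KLF1. RUNX2, a runt domain factor of bone, had an FPKM of 0.218 (0 to 0.491) in EC and 0.247 (0.0546 to 0.464) in EQ, against 4.72 (0.819 to 8.62) in FP and 2.03 (0.355 to 4.07) in FC. FP was 19.1 times EQ, and its interval lay above that of EQ. Of the 58 partner loci, this held for RUNX2 alone. Over all loci compared the share was 2.39%, but 26 of the partner loci stayed below 1 FPKM everywhere and were not compared. The count and the share are therefore not on the same basis. CBFB, the common partner of the runt domain factors, was at 22.6, 30.4, 42.7 and 35.0, and the corepressor gene CBFA2T2 at 3.43, 4.56, 6.02 and 9.52. MEIS1, a homeodomain factor of blood progenitors and lens, was lower in the fibers (14.7, 15.9, 4.99 and 4.51), as was BCL11A (2.96, 3.25, 0.861 and 1.10). From EQ to FP, 1 of 8 loci compared was at least 2-fold higher, against 15.5% of all loci, and 3 were lower, against 25.7%. From EC to FC, 2 of 8 (RUNX2 and CBFA2T2, the latter 2.78-fold with overlapping intervals) were higher, against 21.9%, and 3 lower, against 22.8%. RUNX2 passed the floor of 1 FPKM only through its fiber values, which fixed its calls as higher, so nothing is read from them. The median log2 ratio was -0.06 as deposited. With rescaled totals it was 1.18, where the median of all loci was 0.61, but over fewer loci, as more of them then fell below the floor of 1.

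KIT, the receptor for stem cell factor and a gene that the TAL1 and LMO2 complex activates in blood progenitors, was low in the epithelium and higher in the fibers. Its FPKM was 0.282 (0 to 0.631) in EC and 0.233 (0.0301 to 0.451) in EQ. The fiber values were 2.12 (0.541 to 3.73) for FP and 2.46 (0.270 to 9.29) for FC. KIT was the only target locus that could be compared from EQ to FP. It was 9.10-fold higher in FP, where 15.5% of all loci were at least 2-fold higher. KIT passed the floor of 1 FPKM only through its FP value, which fixed this call, so nothing is read from it. Its FP interval lay above its EQ interval, as was found for 2.39% of all loci. From 1 locus nothing is read about the target list, and whether LMO2 acts on KIT here was not tested. Of the 5 target loci found, 3 (KLF1, GFI1B and EPB42) stayed below 1 FPKM everywhere, and SLC4A1, the anion exchanger of red cells, was 5.12-fold lower in FC, at 1.44 in EC and 0.281 in FC.

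The genes for most proteins that HOPX works with were expressed in every region, and HDAC1, HDAC2 and MKL2 were, as deposited, lower in the fibers. Rescaling each region to the same total, which multiplies FP by 1.74 and FC by 2.28 relative to EC, makes these differences smaller. HDAC2 had an FPKM of 78.7 (27.9 to 129) in EC and 92.4 (33.2 to 151) in EQ, against 32.2 (11.4 to 52.7) in FP and 33.5 (13.6 to 53.4) in FC. HDAC1 (28.9, 22.8, 12.8 and 11.6) was also lower in the fibers, whereas HDAC3 was, as deposited, highest in EQ (15.0, 28.1, 15.4 and 16.4). EPC1, a HOPX partner in muscle cells, was even (10.0, 12.6, 9.76 and 9.27). Of the SRF coactivators, MKL1 was at 4.11, 7.79, 9.39 and 8.84 and MKL2 at 3.16, 4.70, 1.42 and 1.13, while MYOCD and NKX2-5 stayed below 1. SRF was listed as 1 locus merged with the microRNA gga-mir-6542, with values of 3.58 (0.839 to 54.4), 10.2 (0.352 to 72.6), 29.4 (1.06 to 169) and 81.2 (1.02 to 424), in which the 2 genes cannot be separated. From EQ to FP, 1 of 7 loci was past 2-fold upward (the merged SRF locus), against 15.5% of all loci, and 2 downward, against 25.7%. The median log2 ratio was -0.83 as deposited and -0.72 with upper quartile scaling. With rescaled totals it was 0.18, where the median of all loci was 0.61, but over fewer loci, as more of them then fell below the floor of 1, so the values are not comparable.

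The SRF target genes did not share a direction. VCL, which encodes vinculin, was at 4.01 in EC and 6.10 in EQ, against 22.9 in FP and 21.2 in FC, and FOS was at 1.41, 0.294, 1.21 and 1.07. TAGLN was highest in EQ (8.84, 29.7, 5.75 and 5.14), and the matricellular genes CYR61 (369, 51.6, 19.6 and 12.4) and CTGF (9.29, 3.97, 1.25 and 1.38) were highest in EC. Of the 5 loci compared from EQ to FP, 2 were at least 2-fold higher, against 15.5% of all loci, and 3 lower, against 25.7%. FOS passed the floor of 1 FPKM only through its FP value, which fixed its call as higher.

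**Figure D4:**
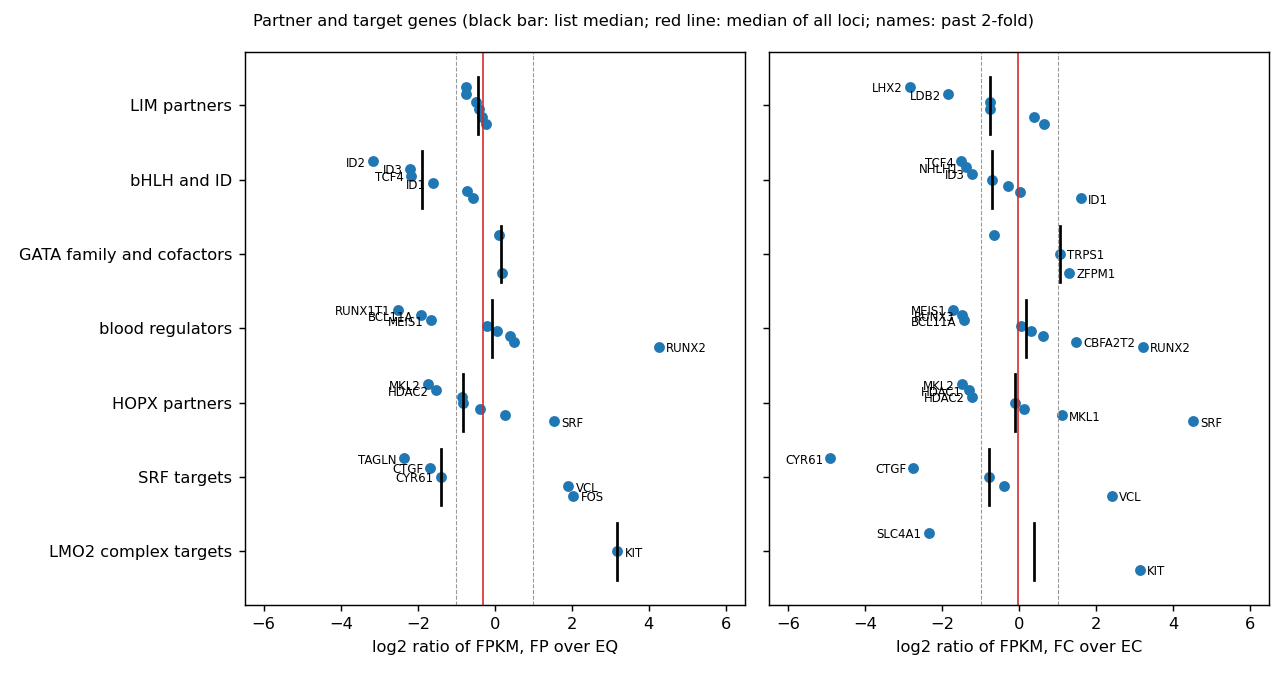
Log2 ratio of FP over EQ (left) and of FC over EC (right) for the compared loci of each partner or target list (points), with the list median in black, the median of all loci in red (-0.30 and -0.02) and names beside loci past 2-fold. RUNX2 (19.1-fold) and KIT (9.10-fold) lie far to the right in FP over EQ, and the ID genes to the left. RUNX2 and KIT passed the floor only through their FP values.

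Markers of other cell types that express LMO2 or its partners were set beside it. The 3 hemoglobin loci HBAA, HBAD and HBB, which may share reads with other globin genes, summed to 1052 FPKM in EC and 171 in EQ, against 212 in FP and 319.7 in FC. The sum over 11 red cell marker loci was 1060 in EC and 173 in EQ, against 218 in FP and 323 in FC. Of the 7 compared, 6 were at least 2-fold lower in FC than in EC, against 22.8% of all loci, and 0 were higher, against 21.9%. From EQ to FP, 1 of 4 compared was at least 2-fold higher, against 15.5% of all loci. It was HEMGN, a gene of red cell precursors (0.464 and 2.52). HEMGN passed the floor of 1 FPKM only through its FP value, which fixed this call.

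The 12 endothelial loci summed to 35.5 in EC and 20.1 in EQ, against 10.5 in FP and 9.07 in FC. Among them the defining endothelial gene CDH5 stayed at or below 0.548, KDR was at 1.43 in EQ and 0.398 in FP, CLDN5 was highest in EC (13.7, 1.65, 2.52 and 1.98), and PLVAP was at one level in EC and EQ and lower in the fibers (13.5, 13.5, 2.24 and 2.49). TIE1, an endothelial receptor gene also active in blood progenitors, went the other way, with 0.222 (0 to 0.416) in EQ and 2.35 (0.693 to 3.97) in FP. Of 5 endothelial loci compared from EQ to FP, 1 (TIE1) was at least 2-fold higher, against 15.5% of all loci, and 2 were lower, against 25.7%. TIE1 passed the floor of 1 FPKM only through FP and KDR only through EQ, which fixed both calls. Of 6 compared from EC to FC, 5 were lower, against 22.8%, and 1 was higher, against 21.9%. Over all loci, 2.39% had an FP interval above that of EQ. The 9 leukocyte loci summed to 14.6, 10.4, 6.10 and 6.05, with the pan-leukocyte gene PTPRC at or below 0.496. The 3 thrombocyte loci given here summed to 2.13 in EC and 1.01 in EQ, against 2.35 in FP and 1.94 in FC. The 1 compared from EQ to FP, GP1BB, was at least 2-fold higher in FP, against 15.5% of all loci. It passed the floor of 1 FPKM only through its FP value, which fixed this call. GP1BB was lower in EQ than in EC (log2 ratio -2.19), and its FP value was near that of EC (log2 ratio -0.08). The part of TIE1-positive cells, thrombocytes or HEMGN-positive cells in the levels of LMO2 was not tested.

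**Figure D5:**
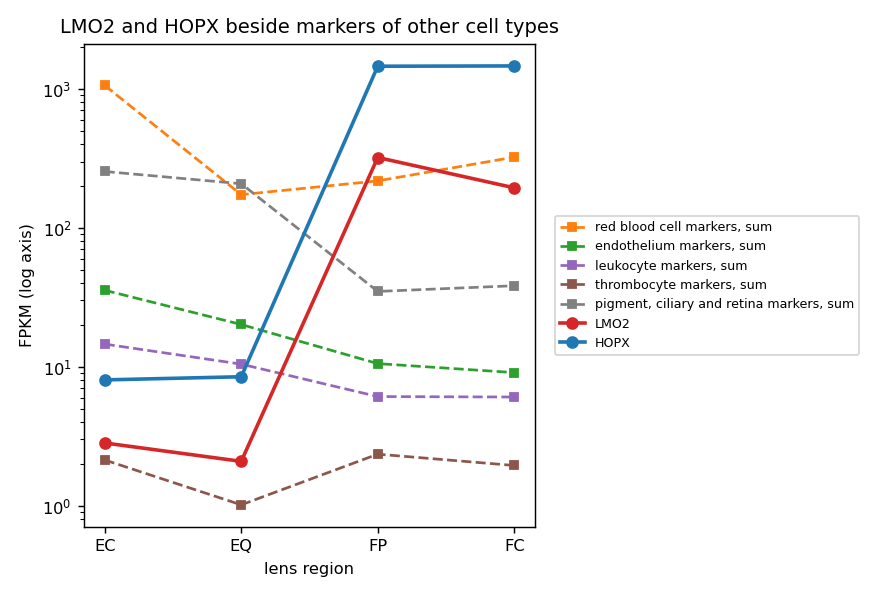
Summed FPKM of the marker lists of other cell types (dashed) and FPKM of LMO2 and HOPX (solid) by region on a log axis. From EQ to FP, LMO2 goes from 2.08 to 321 and HOPX from 8.47 to 1458, the red cell sum from 173 to 218, the endothelial sum from 20.1 to 10.5, the leukocyte sum from 10.4 to 6.10 and the thrombocyte sum from 1.01 to 2.35. The sum of pigment, ciliary and retina markers is 255 in EC and 208 in EQ, against 34.8 in FP and 38.3 in FC.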

How the data were processed

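Total RNA of pooled lens regions was made into directional mRNA libraries and sequenced by the authors, who aligned the reads with TopHat to Galgal4 and estimated transcript levels with Cufflinks and Cuffdiff 2.1.1. Their deposited table gives 1 FPKM per locus and region, pooled over 2 libraries and scaled between libraries, with the bounds of a 95% interval. Delta-crystallin was omitted from that run. A second deposited table holds the authors' own fold changes, p-values and q-values and was not used.

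Ratios were computed as in the study's methods, from the FPKM with nothing added and a threshold of 2, over loci above 0 in both regions and at 1 FPKM or more in at least 1 of them. Alternatives were a fold threshold of 4, no floor, 0.1 or 1 added, non-overlapping intervals in place of the fold, and 3 other scalings. No coordinates or sequences were taken from the RefSeq table, whose assembly (GRCg7b) differs, and only names were used. The genes named were all members, the 5 loci nearest to LMO2 and HOPX, loci of the partner and target lists, and the most abundant loci of the marker lists. Other marker genes (CDH5, KDR, HEMGN and PTPRC) were named after their values were seen. Of the marker genes, 1 is not reported here and was left out of its list. The members and lists were chosen with earlier results of these data known. Scripts were tested on simulated data. They used numpy 2.4.6, pandas 2.3.3 and matplotlib 3.10.9 under Python 3.11.15.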

Additional observations from a re-analysis of the deposited data

How the results depend on the processing

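The FP over EQ log2 ratio lay between 6.71 and 8.05 for LMO2 and between 7.27 and 8.21 for HOPX over all alternatives. With non-overlapping intervals in place of the fold, 0 genes were called higher from EQ to FP instead of 2. When each region was rescaled to a total of 1000000, which multiplies FP by 1.74 and FC by 2.28 relative to EC (log2 shifts of 0.80 and 1.19), LDB1 became a gene past 2-fold from EQ to FP (3 genes instead of 2), 1 gene (LDB1) was higher from FP to FC instead of 0, and 5 of 5 genes were higher in fibers over epithelium instead of 2. Loci in general moved the same way, as the median log2 ratio over all loci was then 0.61 from EQ to FP and 1.39 from EC to FC. These totals lack delta-crystallin, which the paper reports as fiber preferred. Nothing is read from the 5 of 5 count. With totals rescaled, the intervals of EQ and FP did not overlap for 1 gene (LMO2) instead of 0, and the same 1 gene was found with median of ratios scaling and with upper quartile scaling. As this contrast chose LMO2, nothing is read from it. The FC interval of LMO2 overlapped those of EC and EQ under every scaling. Its FP and EC intervals were apart only with totals rescaled. LMO4 in FP over EQ ranged from -0.07 to 0.72 and GATA3 from -0.44 to 0.35, and GATA2 in FC over EC from -0.99 to 0.42, so their directions depend on the scaling. With 0.1 in place of 1 added, 2 of the 5 loci nearest to LMO2 (FABP5 and IRAK4) and 2 of the 5 nearest to HOPX (GLULD1 and PNP) remained. Of values that answer a comparison, 75 stayed within the set limits and 6 moved, and of the other values 103 stayed and 9 moved. These limits were wide, as the change from 2 to 3 genes counted as staying. A log2 ratio stayed if it moved by less than the standard deviation derived from its intervals. For FP over EQ this was 1.02 for LMO2 and 1.08 for HOPX, so nothing is read from the tally. No paired analysis was possible because the values are pooled over the libraries of a region, and for the same reason no library could be left out. The deposited values hold no counts, so for values near or below 1 FPKM no counting error can be given beside the interval.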
